A study of Mus musculus with 24 samples.

Results

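The 6 genes described here, Pik3ip1, Dusp18, Sf3a1, Uqcr10, Nipsnap1 and Rasl10a, lie in this order along a stretch of mouse chromosome 11 in the GRCm38.p6 gene table. They were chosen from the deposited values themselves, as chromosome 11 neighbours noticed for a higher signal in mdx mice than in the other 3 groups. They are 6 of the 18193 genes that the array reads under a symbol of their own. Their values are read at 14 probe sets, of the 45037 on the array and the 34945 that the platform annotation gives exactly 1 gene symbol. Uqcr10 has 3 of these probe sets, Sf3a1 has 4, Pik3ip1, Dusp18 and Nipsnap1 have 2 each and Rasl10a has 1. Because the contrast of mdx with the other groups chose the genes, every value of that contrast is given as a description without a test. The label as a whole was not borne out by the data. All 3 mdx arrays lay above all 9 other arrays in both tissues at 4 probe sets of 3 genes (Dusp18, Sf3a1 and Uqcr10), Pik3ip1 did so in heart alone at 1 probe set, and neither Nipsnap1 nor Rasl10a did so in any tissue.

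The study measured RNA with Affymetrix mouse arrays in the gastrocnemius, a calf muscle, and in the heart of 12 male mice aged 2 months, so that each animal gave 2 of the 24 arrays. Wild type and Cmah KO mice carry the strain label C57BL/6J, and mdx and Cmah KO mdx mice the label C57BL6/10J, with 3 animals in each of the 4 groups. Mdx mice carry a germline mutation of Dmd and lack full-length dystrophin, the protein that links the muscle fibre's cytoskeleton to the matrix around it. Cmah KO mice carry a human-like mutation of Cmah, the enzyme that makes the sialic acid Neu5Gc, and Cmah KO mdx mice carry both defects. No group received a treatment. The strain labels set mdx and Cmah KO mdx apart from the other pair of groups, while a difference between mdx and Cmah KO mdx lies within 1 strain label. The labels do not give the background along chromosome 11, so strain background and genotype cannot be told apart at these genes. The number of arrays, 3 per group, limits the precision of every value below.

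The 6 genes share a chromosome but not a pathway. Uqcr10 encodes a small subunit of respiratory complex III, which passes electrons from ubiquinol to cytochrome c in the inner mitochondrial membrane and is abundant in striated muscle. Sf3a1 encodes a subunit of the SF3A complex of the U2 snRNP, which recognises branch points during splicing, and Dusp18 encodes a dual specificity phosphatase. Pik3ip1 encodes a membrane protein that binds the catalytic subunit of phosphoinositide 3-kinase and restrains it, Nipsnap1 encodes a mitochondrial protein, and Rasl10a encodes a small Ras-like GTPase.

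The 250 bases before the annotated start of the 3 genes raised in both tissues, and of Pik3ip1, are shown because these members moved together in at least 1 tissue. They are read 5′ to 3′ on the gene's own strand from RefSeq on GRCm38.p6, and capitals mark matches on either strand to any of 3 short motifs. One is TATAAA, known as the TATA box. Another is CCAAT, the box named after its own letters. The last is GGGCGG, known as the GC box.

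Dusp18, chr11:3894990-3895239, plus strand: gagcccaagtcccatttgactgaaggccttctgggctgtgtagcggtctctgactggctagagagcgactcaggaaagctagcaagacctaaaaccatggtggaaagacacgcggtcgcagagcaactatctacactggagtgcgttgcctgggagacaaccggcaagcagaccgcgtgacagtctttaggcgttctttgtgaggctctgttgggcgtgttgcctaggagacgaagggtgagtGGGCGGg

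Sf3a1, chr11:4160104-4160353, plus strand: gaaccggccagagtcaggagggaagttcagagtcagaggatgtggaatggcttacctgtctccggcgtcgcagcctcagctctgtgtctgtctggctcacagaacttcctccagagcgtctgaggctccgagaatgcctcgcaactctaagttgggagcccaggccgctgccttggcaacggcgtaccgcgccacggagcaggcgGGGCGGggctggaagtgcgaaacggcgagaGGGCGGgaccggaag

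Uqcr10, chr11:4704345-4704594, minus strand: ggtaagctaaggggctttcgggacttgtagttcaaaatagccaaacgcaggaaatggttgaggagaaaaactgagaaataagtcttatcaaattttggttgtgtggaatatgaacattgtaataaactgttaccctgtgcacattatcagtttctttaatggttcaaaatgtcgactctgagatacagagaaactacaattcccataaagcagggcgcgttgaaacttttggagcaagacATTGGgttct

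Pik3ip1, chr11:3330481-3330730, plus strand: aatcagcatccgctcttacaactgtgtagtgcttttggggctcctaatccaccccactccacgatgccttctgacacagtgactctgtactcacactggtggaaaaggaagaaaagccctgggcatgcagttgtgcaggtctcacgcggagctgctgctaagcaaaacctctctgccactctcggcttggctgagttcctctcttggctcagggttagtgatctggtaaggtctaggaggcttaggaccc

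The 4 stretches had no motif in common. A GC box occurred in the stretches of Dusp18, Sf3a1 and Rasl10a, 3 of the 6 members, against 32.7% of 32851 promoters of the same length. A CCAAT box occurred in Uqcr10 alone and a TATA box in Nipsnap1 alone, against 33.8% and 12.4% of all promoters. An E box (CANNTG) was present in 4 of the 6, against 66.2% of all promoters, and AAGGTCA, the core motif of oestrogen-related receptors, in none of the 6, against 4.08%. The Uqcr10 stretch was 38.8% G or C and the Rasl10a stretch 72.4%, on either side of the median of 52.4% over all promoters. A match describes letters in this window, not a site in use.

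Of the whole data set, 3 facts touch these genes. Dmd, the dystrophin gene, had a mean log2 intensity of 10.16 ± 0.10 (SD, n = 3) in wild type and 10.15 ± 0.14 in Cmah KO gastrocnemius, against 8.37 ± 0.28 in mdx and 8.18 ± 0.56 in Cmah KO mdx. In heart it was 9.96 ± 0.10 in wild type, 9.25 ± 1.10 in Cmah KO, 8.86 ± 0.37 in mdx and 8.52 ± 0.33 in Cmah KO mdx, and the lowest Cmah KO heart (8.01) was below every mdx heart (8.44 to 9.12), so that the labels were borne out array by array in gastrocnemius alone. The Cmah probe set does not check the labels because its place relative to the mutated part is not given in the sources used here. The heart arrays of Cmah KO replicate 3 and Cmah KO mdx replicate 2 stood apart, since their Gapdh controls read 4.29 to 4.43 (log2) higher at the 3′ end than at the 5′ end, against 0.44 to 1.60 in the other 10 heart arrays. The heart difference of each member is therefore also given without them, at 1 probe set or more. The arrays of 4 animals, 1 of each genotype and among them mdx animal 82, had higher Gapdh differences than the rest in gastrocnemius (0.76 to 1.02 against 0.36 to 0.71) and, those 2 arrays aside, in heart (0.98 to 1.60 against 0.44 to 0.54). The tissue labels were borne out at 8 of 10 cardiac and 9 of 10 fast skeletal muscle markers, which were higher in every array of their own tissue. In such whole tissues, fewer cells of a type and less RNA per cell cannot be told apart.

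Uqcr10 had the largest difference of the 14 probe sets in gastrocnemius, at the probe set 1434340_at. There its log2 intensity was 8.23, 9.22 and 7.87 in the 3 mdx arrays. It was 4.07, 3.89 and 2.74 in wild type, 4.16, 5.57 and 3.45 in Cmah KO and 4.24, 4.02 and 4.49 in Cmah KO mdx gastrocnemius. Every mdx array was thus higher than every other array, and the remaining groups overlapped one another. The mdx mean was 8.44 ± 0.70 (SD, n = 3) against 4.07 ± 0.76 over the other 9 arrays, a log2 difference of 4.37. Since 8 of the other 9 arrays lay below the level used as the filter for dim probe sets (4.66 in gastrocnemius and 4.78 in heart), the fold is given as a bound, with such arrays set to that level, and was at least 12.8-fold. In order of their means mdx was followed by Cmah KO (4.39 ± 1.08), Cmah KO mdx (4.25 ± 0.23) and wild type (3.57 ± 0.72), and the last 3 did not differ beyond their spread.

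In heart the same probe set gave 7.77, 8.07 and 8.93 in mdx. Wild type hearts had 5.01, 2.95 and 4.53, Cmah KO hearts 2.99, 4.93 and 5.66, and Cmah KO mdx hearts 5.27, 5.56 and 4.17. Again no array of another group reached the lowest mdx array, which lay 2.11 above the highest of them. The means were 8.26 ± 0.60 in mdx and 4.56 ± 1.02 in the other 9 arrays, a log2 difference of 3.69 (at least 9.16-fold by the same bound), or 3.99 without the 2 deviating arrays. Only 4 gastrocnemius and 8 heart arrays exceeded the filter level. In gastrocnemius the probe set therefore passed that filter only because of the mdx arrays.

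A second probe set of Uqcr10, 1434341_x_at, gave a similar picture at smaller size. In gastrocnemius it read 8.15, 9.24 and 6.84 in mdx, against a lowest, median and highest value of 4.68, 5.22 and 5.97 over the other 9 arrays. In heart it read 7.97, 7.84 and 9.07 in mdx, against 5.15, 5.53 and 5.87. The mdx arrays were the 3 highest in both tissues. The log2 differences were 2.84 (7.14-fold) and 2.75 (6.72-fold), with mdx means of 8.08 ± 1.20 and 8.29 ± 0.68 (SD, n = 3). The suffix _x_at marks a probe set with probes that also match other sequences, so its signal may not come from Uqcr10 alone.

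The brightest Uqcr10 probe set, 1424364_a_at, did not share the difference. It had 11.79 ± 0.25 in mdx and 11.94 ± 0.32 in the other 9 gastrocnemius arrays, a log2 difference of -0.15. In heart it had 12.29 ± 0.08 in mdx and 12.15 ± 0.31 in the others, a difference of 0.14 that was 0.00022 without the 2 deviating arrays. The mdx arrays lay inside the range of the others in both tissues. The probe sets of Uqcr10 therefore disagreed, and which part of the transcript each of them reads is not given in the sources used here.

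Dusp18 had the largest difference of the 14 in heart, at 1451270_at. The mdx hearts read 8.06, 8.56 and 9.37. Wild type hearts read 5.43, 3.77 and 5.44, Cmah KO hearts 3.46, 6.06 and 5.42 and Cmah KO mdx hearts 5.75, 3.95 and 3.95. Each mdx heart was at least 2.00 above the highest array of the other groups. The mean was 8.66 ± 0.66 in mdx and 4.80 ± 1.00 in the other 9 hearts, a log2 difference of 3.86 (at least 10.7-fold, since 4 of the 9 lay below the filter level), and 3.83 without the 2 deviating arrays.

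In gastrocnemius Dusp18 read 6.36, 8.64 and 6.89 in mdx at this probe set. The values were 4.50, 4.65 and 4.27 in wild type, 4.19, 5.28 and 5.09 in Cmah KO and 3.49, 4.25 and 5.21 in Cmah KO mdx. Animal 336 stood above the other mdx animals, and all 3 stood above the rest. The difference was 2.75 (at least 5.51-fold), from 7.30 ± 1.20 in mdx against 4.55 ± 0.58 in the other 9 arrays, of which 6 lay below the filter level, and the other groups, in the order Cmah KO, wild type and Cmah KO mdx, overlapped. The second Dusp18 probe set, 1437866_at, differed by only 0.29 in gastrocnemius and 0.56 in heart, with overlapping groups, and the heart value was 0.13 without the 2 deviating arrays.

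Sf3a1 was raised at 1 of its 4 probe sets, 1419087_s_at. The gastrocnemius values were 7.17, 7.22 and 7.18 in mdx, 5.57, 5.20 and 4.94 in wild type, 4.67, 6.58 and 5.80 in Cmah KO, and 4.90, 5.91 and 6.67 in Cmah KO mdx. The mdx arrays were nearly equal to one another and 0.50 above the highest other array. In heart the values were 7.86, 7.97 and 8.58 in mdx, 6.41, 4.37 and 5.87 in wild type, 5.35, 6.39 and 6.38 in Cmah KO, and 5.98, 4.20 and 5.29 in Cmah KO mdx. The log2 differences were 1.61 (3.04-fold) in gastrocnemius and 2.55 (at least 5.44-fold) in heart, or 2.47 in heart without the 2 deviating arrays. The suffix _s_at marks a probe set shared by more than 1 transcript, so the signal may include another transcript.

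The other Sf3a1 probe sets overlapped between mdx and the rest in both tissues. The bright 1449333_at differed by 0.38 in gastrocnemius (7.57 ± 0.52 against 7.19 ± 0.87) and by 0.69 in heart (7.39 ± 0.56 against 6.70 ± 1.02). The dimmer 1446687_at differed by 0.13 and -0.10. At 1445719_at no array passed the filter level in either tissue, and its means were between 2.47 and 3.50 in all 8 groups.

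**Figure D1:**
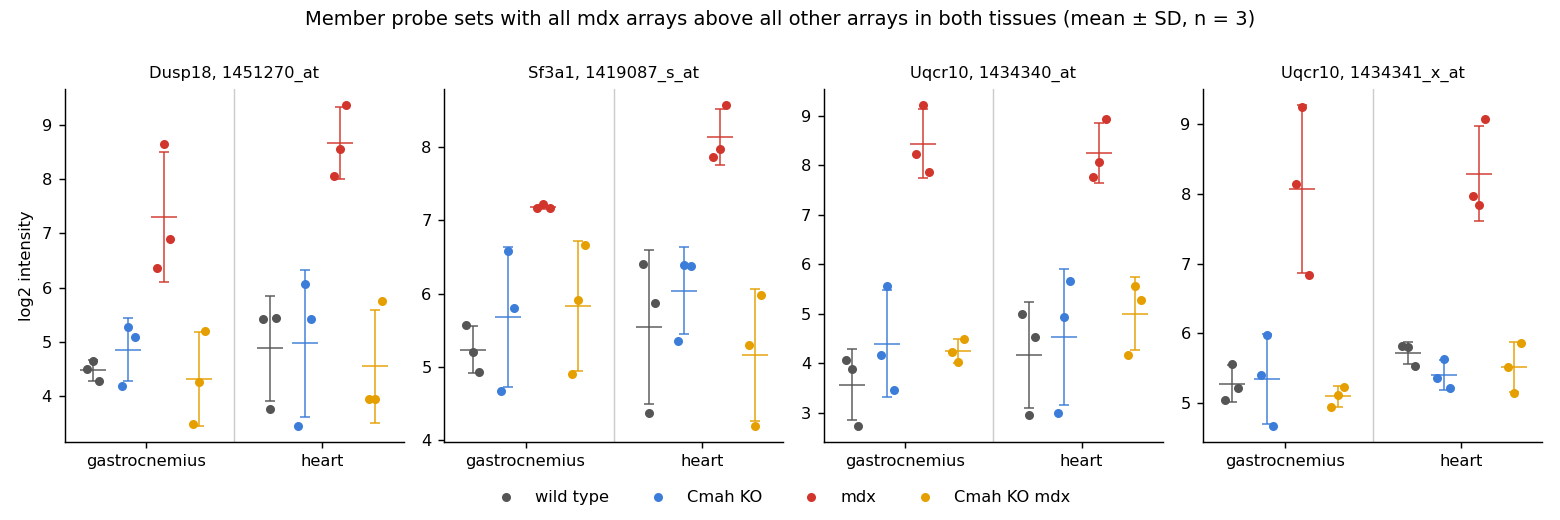
Log2 intensity (vertical axis) of the 4 member probe sets with all mdx arrays above all others in both tissues, by genotype (colour) and tissue; points are single arrays, bars the mean ± SD of 3. The mdx points stand above all others in each panel, while wild type, Cmah KO and Cmah KO mdx overlap.

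Pik3ip1 differed between the tissues in its mdx values. In heart 1439087_a_at read 7.79, 7.80 and 8.37 in mdx, against 6.80, 6.36 and 6.79 in wild type, 6.54, 7.08 and 6.23 in Cmah KO and 7.00, 4.88 and 6.24 in Cmah KO mdx. All 3 mdx hearts were above all others, by 1.55 on average (2.93-fold), or by 1.30 without the 2 deviating arrays. In gastrocnemius the same probe set had 7.11 ± 0.40 in mdx and 7.06 ± 0.58 in the others, and the groups overlapped. The brighter 1428332_at differed by 2.04 in heart (9.42 ± 0.78 against 7.38 ± 1.28), or by 1.53 without the 2 deviating arrays, and by 0.0051 in gastrocnemius. Its mdx hearts overlapped the rest, since animal 82 read 8.63 and the highest other heart, a Cmah KO mdx heart, read 8.84. Within the 4 animals that stood apart in the controls, animal 82 was above the other 3 hearts, and within the remaining animals both mdx hearts were above the other 6. This split was made after seeing the data, on the contrast that chose the gene. Nothing is read from it, and the overlap stands.

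Nipsnap1 was not raised in mdx. At 1456748_a_at the mdx hearts read 4.65, 3.59 and 3.82, below all 9 others, which ranged from 4.78 through a median of 5.17 to 8.92. At this probe set the mdx hearts were thus lower, with a log2 difference of -1.67, or -1.15 without the 2 deviating arrays, of which the Cmah KO mdx heart held the value of 8.92. All 3 mdx hearts lay below the heart filter level of 4.78, so the size of this difference is uncertain. In gastrocnemius 1456748_a_at read 5.57, 4.34 and 4.29 in mdx and between 2.69 and 8.23 in the others. The dim 1448465_at differed by -0.08 in gastrocnemius and by 0.39 in heart, where only 1 array exceeded the filter level, so that it was not tested there.

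Rasl10a, read at 1427975_at, had similar values in mdx and the rest in gastrocnemius. It read 4.44, 4.56 and 3.96 in mdx gastrocnemius, and from 3.92 through a median of 4.40 to 5.56 in the others. In heart it read 5.81, 6.88 and 6.42 in mdx, and from 4.73 through 5.54 to 6.66 in the others. The mdx mean in heart was higher by 0.88 (6.37 ± 0.54 against 5.49 ± 0.67), with overlap, and by 1.16 without the 2 deviating arrays, when the lowest mdx heart lay 0.06 above the highest remaining one. Only 3 gastrocnemius arrays exceeded the filter level.

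**Figure D2:**
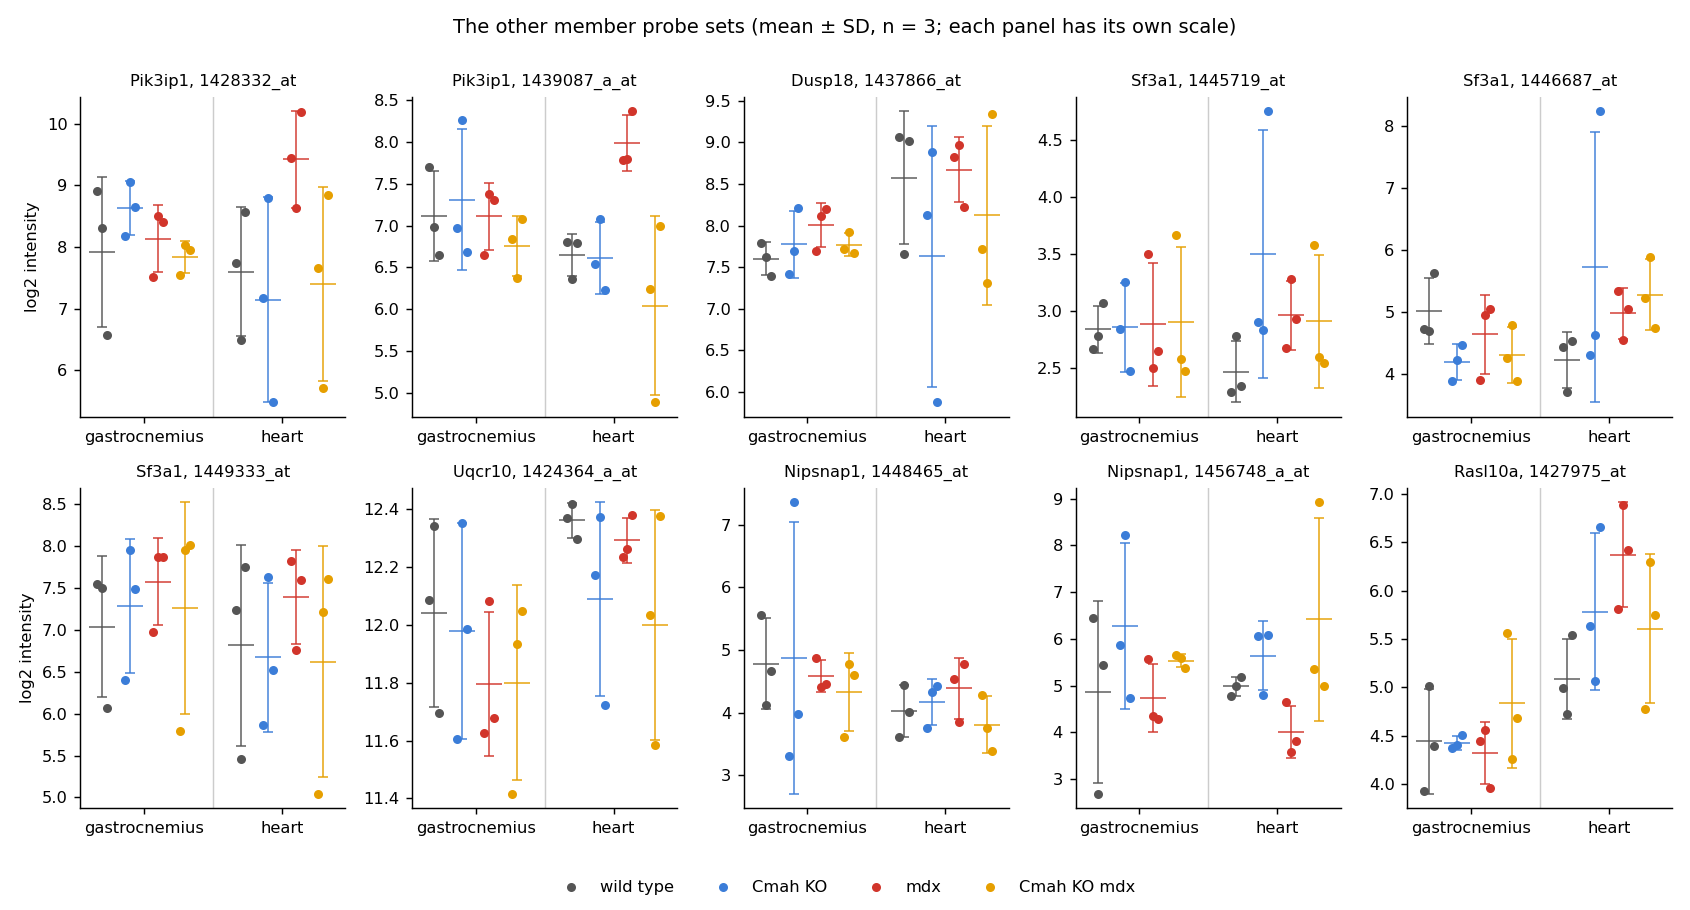
Log2 intensity of the other 10 member probe sets, by genotype and tissue, each panel on its own scale; points are single arrays, bars the mean ± SD of 3. Only Pik3ip1 1439087_a_at in heart has all mdx points above all others, and only Nipsnap1 1456748_a_at in heart has all of them below.

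Over all 14 probe sets the mdx mean was higher at 10 in gastrocnemius and at 12 in heart. The median difference was 0.09 in gastrocnemius, beside -0.01 over all probe sets tested there, and 0.78 in heart, beside 0.19. In heart 66.5% of all tested probe sets had a higher mdx mean, against 48.9% in gastrocnemius, and heart medians are read against that shift. The members with all mdx arrays above all others numbered 4 of 14 in gastrocnemius, where 0.119% of all tested probe sets did so, and 5 of 14 in heart, where 0.449% did. All mdx arrays were below all others at 0 of the 14 in gastrocnemius, beside 0.21% of all tested, and at 1 in heart, beside 0.15%. Since this contrast chose the genes, nothing is read from these shares.

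Across the array only 7 of the 27869 probe sets tested in both tissues (0.0251%) had all mdx arrays above all others in each tissue, and none had all of them below in both. Besides the 4 of Dusp18, Sf3a1 and Uqcr10, 1 more was on chromosome 11, 1438285_at of the pseudogene Ube2d-ps, which lies outside the neighbourhood of the members. It was higher in mdx by 1.45 in gastrocnemius and 1.55 in heart. The remaining 2 were Zbtb20 1439128_at on chromosome 16, which encodes a zinc finger repressor (0.29 and 0.92), and 1442447_at, to which the annotation gives no symbol (3.66 and 2.88). For Zbtb20 the lowest mdx array lay only 0.0068 above the highest other array in gastrocnemius and 0.034 in heart. The other hearts ranged from 6.24 to 10.99 and the mdx hearts from 11.03 to 11.13, so its heart difference rests on low values among the others. These probe sets were listed after their values were seen.

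The raised probe sets stood among neighbours of which few shared the difference. The members were chosen for a higher mdx signal in these same values. A smaller difference among the remaining genes is therefore partly built into the choice. Of the members, Pik3ip1 and Rasl10a are the outermost, and 35 other measured genes lie between them. Together with 5 measured genes before Pik3ip1 and 10 after Rasl10a these neighbours had 80 tested probe sets in each tissue, with a median difference of 0.00063 in gastrocnemius and 0.16 in heart. In gastrocnemius the median was 0.10 between the outermost members, -0.34 before Pik3ip1 and -0.08 after Rasl10a. In heart it was 0.18, -0.14 and 0.14 in the same order. All 3 mdx arrays were above all others at 1 of the 80 in gastrocnemius (Ccdc157, a coiled-coil protein gene) and at 1 in heart (Mtfp1, a mitochondrial fission protein gene). Ccdc157, the measured gene next to Sf3a1, was higher by 1.02 in gastrocnemius (8.25 ± 0.28 against 7.23 ± 0.34) and by 1.14 in heart, where the groups overlapped. Mtfp1 differed by 0.84 in heart and by -0.04 in gastrocnemius. Its other hearts ranged from 6.70 to 11.06 and its mdx hearts from 11.08 to 11.25, so the heart difference rests on low values among the others. None of the 80 passed the limma test of mdx against the mean of the other 3 groups at an adjusted p below 0.05 in either tissue, a threshold passed by 0.0169% of all probe sets in gastrocnemius and by 0 in heart, and an unadjusted p below 0.05 was found at 5 of the 80 in gastrocnemius, beside 2.52% of all tested, and at 1 in heart, beside 0.527%. The 5 belonged to 4 genes and went both ways: Ccdc157, Tug1 (0.94) and Nf2 1450382_at (0.81) were higher in mdx, and Patz1 (-0.69) and Nf2 1421820_a_at (-0.48) were lower, chosen here for their p.

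Of the genes directly beside the raised members, Ccdc157 had the largest difference in both tissues. Tbc1d10a, on the other side of Sf3a1, differed by -0.13 in gastrocnemius and -0.19 in heart at 1 probe set and by 0.23 and 0.58 at the other. Zmat5, next to Uqcr10 on the opposite strand, differed by 0.02 in gastrocnemius and 0.44 in heart. Ascc2, on the other side of Uqcr10, differed by 0.28 and 0.18 at 1 probe set and by 0.18 and 0.85 at the other. Slc35e4, next to Dusp18, differed by 0.10 in gastrocnemius and -0.0021 in heart at 1434167_at, and Limk2, next to Pik3ip1, by between 0.14 and 0.28 in gastrocnemius and between -0.04 and 0.58 in heart.

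**Figure D3:**
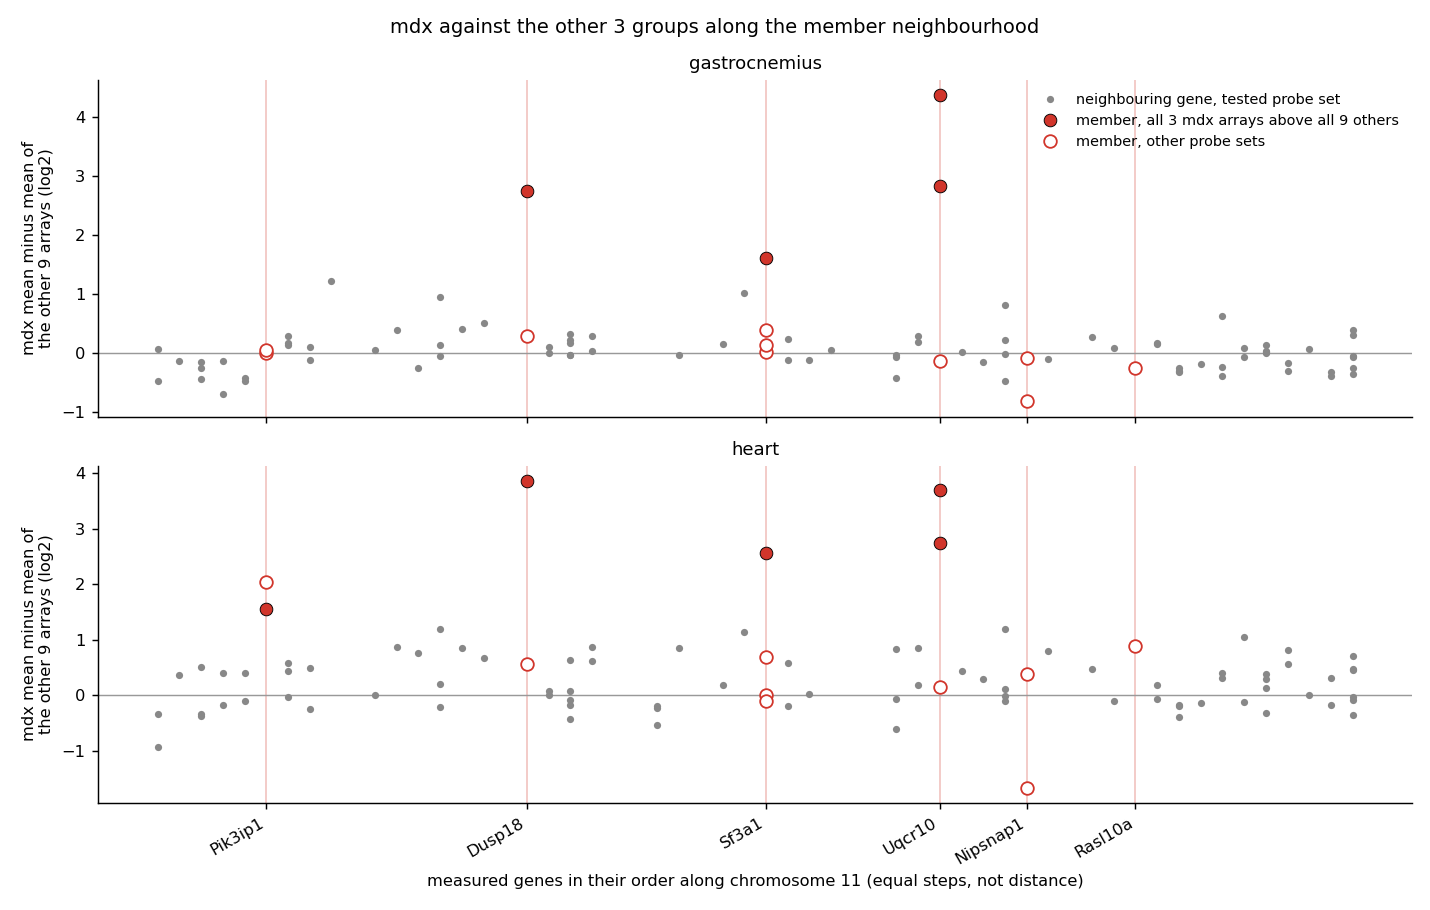
Log2 difference between the mdx mean and the mean of the other 9 arrays (vertical axis) for the members and their neighbours, in gene order along chromosome 11 (horizontal axis, equal steps); grey points are tested probe sets of neighbours, filled red points members with all mdx arrays above all others, open red points the other member probe sets. Filled points reach 4.37 in gastrocnemius and 3.86 in heart, and the highest neighbour lies at 1.22 in gastrocnemius and 1.20 in heart. The members were chosen for high mdx values, so this gap is partly built in.

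Each animal gave both tissues, and the mdx animals kept some of their order between them. At Uqcr10 1434340_at animal 336 was highest in gastrocnemius and heart (9.22 and 8.93), followed by animal 82 (8.23 and 8.07) and animal 340 (7.87 and 7.77). Animal 336 also had the highest Dusp18, Sf3a1 and Uqcr10 1434341_x_at values of the 3 in both tissues, while the order of animals 82 and 340 changed between tissues at those probe sets. With 3 animals this order is a description. The difference between mdx and the rest is given within the set that held animal 82 (1 mdx animal against 3) and within the remaining animals (2 against 6). Its sign was fixed in advance, since every mdx array lay above every other array at all 4 probe sets, so only its size is described. At Uqcr10 1434340_at it was 4.52 and 4.30 in gastrocnemius and 4.70 and 3.19 in heart. At Dusp18 1451270_at it was 2.37 and 2.94 in gastrocnemius and 4.83 and 3.37 in heart, and at Sf3a1 1419087_s_at it was 2.33 and 1.24 in gastrocnemius and 2.97 and 2.35 in heart.

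**Figure D4:**
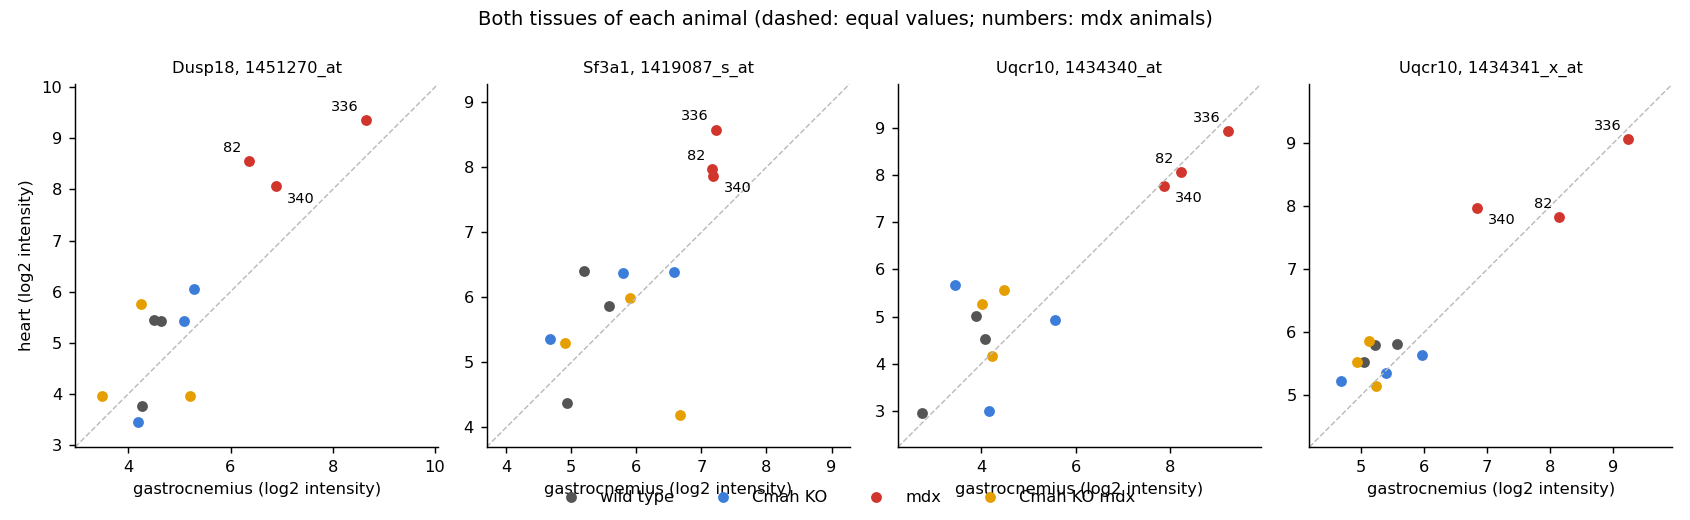
Heart (vertical axis) against gastrocnemius (horizontal axis) log2 intensity of the 12 animals at the 4 raised probe sets, coloured by genotype, with the mdx animals numbered and the dashed line at equal values. The mdx animals are set apart in both tissues, and animal 336 has the highest gastrocnemius and heart value in each panel.

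The groups other than mdx were compared in the limma fit of each tissue, on contrasts that the choice of genes did not name. The genes were nevertheless noticed because mdx alone was high, so small differences among the other groups are partly built into the choice. None of the 13 tested member probe sets passed an adjusted p of 0.05 between Cmah KO and wild type gastrocnemius, where 0% of all probe sets did. None of the 13 passed between Cmah KO mdx and Cmah KO (0.112% of all) or between Cmah KO mdx and wild type (0.0169% of all). Uqcr10 1434340_at was among these 13 only because of its mdx arrays, so nothing is read from its missed thresholds in gastrocnemius. In heart none of the 12 tested passed in the same 3 comparisons, nor did any other probe set (0%). No member had an unadjusted p below 0.05 in any of the 6 comparisons, a level met by 1.12% (Cmah KO against wild type), 7.76% (Cmah KO mdx against Cmah KO) and 6.20% (Cmah KO mdx against wild type) of all probe sets in gastrocnemius and by 0.85%, 1.93% and 1.68% in heart. Over these comparisons the lowest limma adjusted p among the members lay between 0.686 and 1.00.

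The intervals bound the difference in signal at the raised probe sets between Cmah KO mdx, which also lacks dystrophin, and its dystrophin-bearing counterparts. Where arrays lay below the filter level, the intervals do not bound a difference in expression. Uqcr10 1434340_at differed between Cmah KO mdx and wild type by 0.68 in gastrocnemius (95% interval -0.52 to 1.88) and by 0.84 in heart (-0.77 to 2.44). Against Cmah KO it differed by -0.15 in gastrocnemius (-1.34 to 1.05) and by 0.47 in heart (-1.13 to 2.08). All wild type and Cmah KO mdx gastrocnemius arrays lay below the filter level at this probe set. It entered the gastrocnemius test only because of its mdx arrays, so the gastrocnemius intervals compare dim signals. Dusp18 1451270_at differed between Cmah KO mdx and wild type by -0.16 in gastrocnemius (-1.42 to 1.11) and by -0.33 in heart (-1.98 to 1.33). Against Cmah KO it differed by -0.54 (-1.80 to 0.73) and -0.43 (-2.08 to 1.23). Of the 9 arrays outside mdx, 6 in gastrocnemius and 4 in heart lay below the filter level at this Dusp18 probe set. Sf3a1 1419087_s_at differed from wild type by 0.59 (-0.50 to 1.69) and -0.39 (-1.73 to 0.95), and from Cmah KO by 0.14 (-0.95 to 1.24) and -0.88 (-2.22 to 0.45). The upper end of 1.69 lies above the difference of 1.61 between mdx and the rest in that tissue. A missed threshold does not show that the groups are alike. Comparisons that share the wild type or Cmah KO mdx arrays are not independent of one another.

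Between the tissues, outside mdx, Rasl10a was higher in heart. Its log2 intensity was 5.49 ± 0.67 in heart and 4.57 ± 0.47 in gastrocnemius over the 9 animals, and heart was higher in 7 of the 9. The difference of 0.92 ± 0.25 (SE) had a limma adjusted p of 0.0106 with animal as a random block, and was the only one of 13 member probe sets that passed, beside 22.7% of all probe sets tested. It did not pass without wild type animal 66 (0.76) or in wild type animals alone (0.64). The highest of the 9 hearts were the 2 deviating arrays (6.66 and 6.30). In gastrocnemius 6 of the 9 values lay below the filter level of that tissue. Pik3ip1 differed by -0.63 at 1439087_a_at (SE 0.25, limma adjusted p = 0.0818) and by -0.75 at 1428332_at (SE 0.40, adjusted p = 0.188), which did not pass. In the 3 mdx animals Pik3ip1 was higher in heart than in gastrocnemius in each animal, by 0.87 ± 0.35 and 1.29 ± 0.36 (SD, n = 3). Heart against gastrocnemius in mdx was not tested, because the choice of the genes used those arrays. The 4 raised probe sets had tissue differences outside mdx of 0.49 and 0.30 (Uqcr10), 0.25 (Dusp18) and -0.00019 (Sf3a1), none past the threshold.

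**Figure D5:**
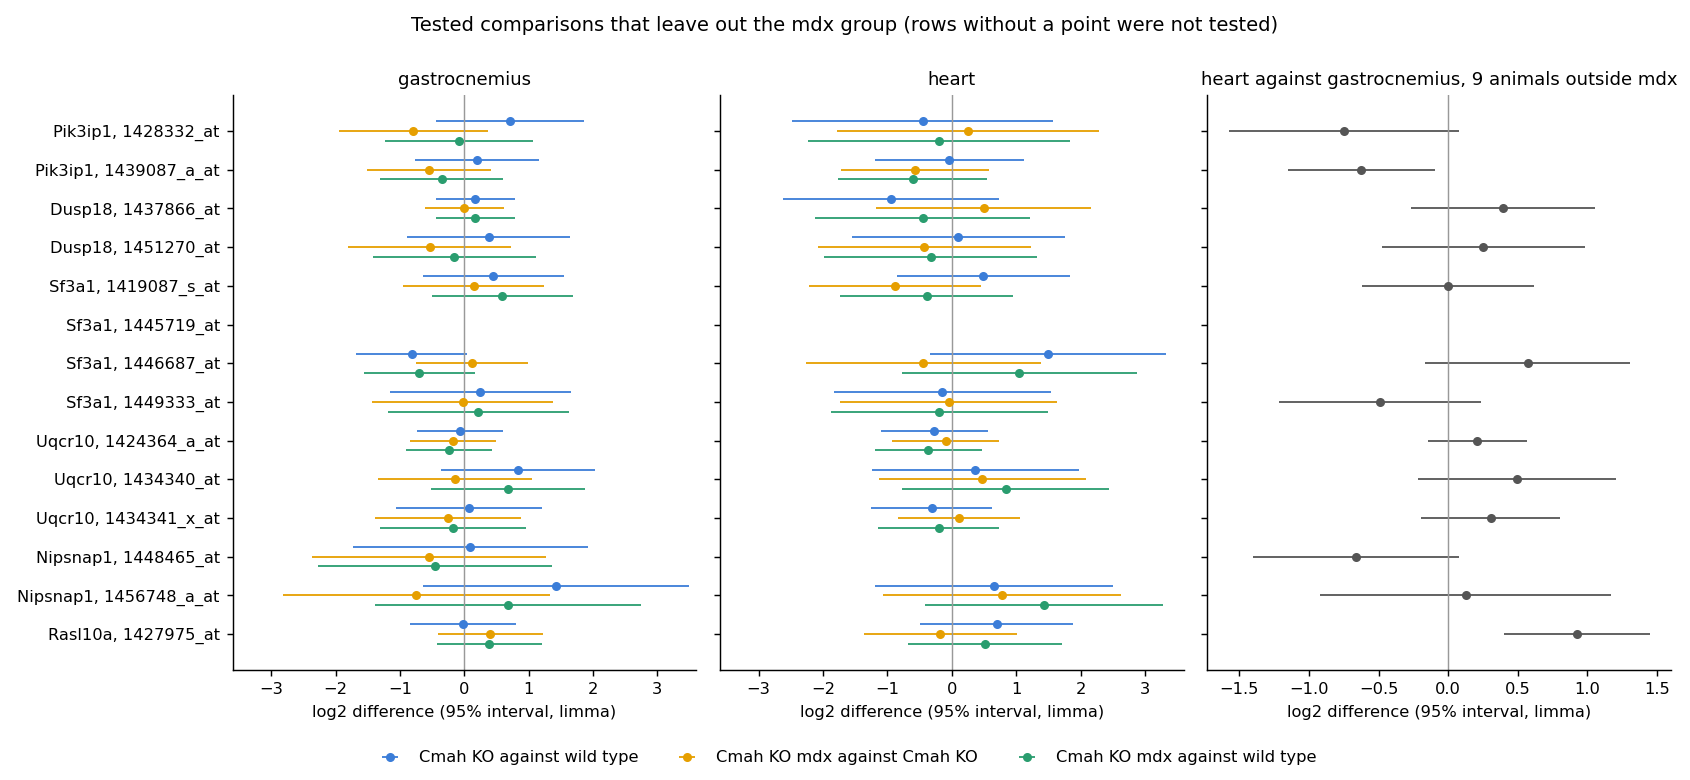
Log2 differences with 95% limma intervals (horizontal axis) of the member probe sets (vertical axis) in the comparisons without mdx, within gastrocnemius, within heart and between tissues. Every interval of the within-tissue comparisons includes 0, and Rasl10a lies at 0.92 between the tissues. The between-tissue interval of Pik3ip1 1439087_a_at (-1.15 to -0.10) also excludes 0, but only Rasl10a passed the adjusted threshold.

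Genes that work with the members were read from lists, each gene at its brightest probe set. Of the 8 other measured subunits of respiratory complex III (Uqcrc1, Uqcrc2, Uqcrfs1, Uqcrb, Uqcrq, Uqcrh, Uqcr11 and Cyc1) none passed in any comparison. In mdx against the other 3 groups their median difference was -0.04 in gastrocnemius (range -0.12 to 0.05) and 0.28 in heart (-0.11 to 0.52), beside -0.01 and 0.19 over all probe sets tested. Uqcr11 in heart differed by 0.52 (limma adjusted p = 0.968). The 9 other SF3A and SF3B subunits likewise had none past the threshold for mdx, with medians of 0.02 and 0.39. Between the tissues outside mdx, Sf3a2, the partner of Sf3a1 in SF3A, fell by 0.99 in heart (limma adjusted p = 0.0393) and Phf5a, an SF3B subunit, fell by 0.95 (adjusted p = 0.0141).

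For the other members' relatives the mdx contrast passed nowhere. Among the 8 class I phosphoinositide 3-kinase subunits the medians were 0.20 and 0.41. The regulatory subunit Pik3r5 differed by 0.92 in mdx gastrocnemius (limma adjusted p = 1.00) and by -0.58 in heart. Of the small dual specificity phosphatases related to Dusp18, 11 of 13 were tested in gastrocnemius, with a median of -0.04. Dusp26 fell by 3.27 in Cmah KO mdx against Cmah KO gastrocnemius (SE 0.40, limma adjusted p = 0.0185) and fell by 3.41 against wild type (adjusted p = 0.0159). Its difference in mdx against the other 3 groups was -1.63 (limma adjusted p = 0.466). The low Cmah KO mdx arrays are part of that reference, so the value understates the difference of mdx from wild type and Cmah KO. Of the Ras-like GTPases 9 of 11 measured were tested in gastrocnemius and 10 in heart, with medians of -0.01 and 0.37. Of the NIPSNAP family Nipsnap2 differed by 0.03 and 0.15 in mdx and Nipsnap3b by 0.11 and 0.02.

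Between the tissues outside mdx, more of these relatives passed, beside the 22.7% of all probe sets. Of the Ras-like GTPases 3 of 11 were higher in heart, Rasl10b by 3.02, Rrad by 1.89 and Rasl11b by 1.22, and Rasd2 was lower (-3.00). Of the small dual specificity phosphatases 7 of 11 were lower in heart and none was higher. Their differences were -5.77 for Dusp13, -3.72 for Dusp26, -3.45 for Dusp15, -2.52 for Dusp14, -1.02 for Styx, -0.90 for Dusp28 and -0.79 for Dusp22. Of the 8 phosphoinositide 3-kinase subunits, Pik3cd, a catalytic subunit (-1.70), and Pik3r5 (-0.95) were lower in heart. The NIPSNAP family had none past the threshold.

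None of the 9 cell type lists had a mean log2 level with all mdx arrays above all others in either tissue. The regenerating muscle list (Myh3, Myh8, Myog and 4 more) ranged from 8.85 to 9.90 in mdx and from 8.89 to 10.12 in Cmah KO mdx gastrocnemius, against 6.23 to 7.26 in the other pair of groups. The macrophage list ranged from 9.09 to 9.71 in mdx and from 8.70 to 10.27 in Cmah KO mdx gastrocnemius, against 7.58 to 8.89. In heart the lists with the largest mdx difference were fast skeletal muscle (0.81) and endothelial (0.59). The fast skeletal muscle list ranged from 7.97 to 9.80 in mdx hearts, 6.95 to 9.85 in wild type, 9.17 to 9.72 in Cmah KO and 5.62 to 9.65 in Cmah KO mdx. The endothelial list ranged from 8.96 to 9.68 in mdx hearts, 8.86 to 9.64 in wild type, 7.30 to 9.07 in Cmah KO and 7.47 to 9.33 in Cmah KO mdx. The regenerating list had 4.48 to 4.82 and the macrophage list 8.37 to 8.68 in mdx hearts, each within the range of the other groups. The part of these lists in the members' values was not tested.

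The genes most like the members were named by their correlation, over the 24 arrays after centring each tissue on its mean, with the mean of the 13 tested member probe sets. The mdx arrays and the 2 deviating arrays enter this measure, so it is a description. The highest were Dbp, a clock-controlled transcription factor (r = 0.76), Gstt3 (0.73), Sema4b (0.73), Slc16a10 (0.73) and Glul, glutamine synthetase (0.71), followed by Acad10, Peak1, Ube2d-ps, Fryl and Podn (0.70 each). Only Ube2d-ps is on chromosome 11. Against the mean of the 4 raised probe sets, a profile added after seeing the data, Ube2d-ps was highest (0.77), and 5 of the 10 highest were on chromosome 11 (Ube2d-ps, Pttg1, Bahcc1, Cyfip2 and Myo19). Chromosome 11 held 1974 of the 29518 probe sets tested in gastrocnemius and 1927 of the 29421 tested in heart. The 4 probe sets were picked for high mdx values, so genes high in mdx rank high by construction and nothing is read from the count. Pttg1, which encodes securin, had mdx means that were 1.73 (gastrocnemius) and 2.18 (heart) above those of the remaining arrays.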

How the data were processed

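Values are the intensity per probe set that the authors deposited for 24 arrays (45101 probe sets, array medians between 41.9 and 50.7), on a linear scale. The submitters' processing notes name GCOS and RMA, while their order, versions and parameters are not given in the sources used here. RMA as usually run sets all arrays to a common distribution, which can hide shifts of all genes. The deposited values did not have a common distribution, since the upper quartile of an array ranged from 6.74 to 8.04 (log2). RNA input was 25 ng, per the labels' protocols.

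Without the 64 control probe sets, values were log2-transformed, so every log2 value here was computed from the deposited intensity. Gene symbols came from the platform annotation, of which 34741 of 34945 single symbols matched the GRCm38.p6 gene table, used for names and gene order. A probe set was tested where at least 3 arrays of a tissue exceeded the 40th percentile of its values (29518 in gastrocnemius, 29421 in heart). Of the 14 member probe sets, 13 were tested in gastrocnemius, 12 in heart and 13 in the fit over both tissues. The fit was limma 3.58.1 (R 4.3.3, lmFit and eBayes, two-sided, Benjamini-Hochberg over all tested probe sets, adjusted p below 0.05) on the 4 group means of a tissue. For the comparison between tissues the 2 arrays of an animal were linked as a random block in a fit over the 24 arrays (consensus correlation 0.21). The script was checked on simulated data.

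The members and lists were chosen with earlier results of these data known. All members were named at every probe set. Of neighbours the text names those with all mdx arrays above all others and the genes next to members, of each list those that passed or the 1 or 2 with the smallest p, and of alike genes the 10 highest. Cyfip2, Pttg1 and the other genes of the profile of 4 probe sets, and the remaining probe sets raised in both tissues, were chosen after their values were seen. No promoter or peak was measured. Replicate numbers of the labels do not pair animals across groups: deviations of same-numbered arrays correlated between -0.58 and 0.61 in gastrocnemius (10 of 18 pairs over 0.1) and between -0.42 and 0.64 in heart (6 of 18). Other settings tried were array weights, another scaling or filter, eBayes with an intensity trend, fits on only the groups compared, a replicate block, no animal block, and single arrays left out.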

Additional observations from a re-analysis of the deposited data

How the results depend on the processing

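The members' calls between the groups other than mdx did not depend on the processing: in the 6 comparisons 0 members passed under each alternative (15 in gastrocnemius and 16 in heart), the replicate block included, which also gave 0. Over all probe sets these counts ranged from 2 to 539 for Cmah KO mdx against Cmah KO and from 0 to 65 for Cmah KO mdx against wild type in gastrocnemius, and from 0 to 12 for Cmah KO mdx against wild type in heart. Between the tissues, 1 member passed as reported, 0 with a stricter filter or in wild type animals alone, 3 with array weights, and 2 without both deviating heart arrays. Leaving out 1 animal at a time gave between 0 (without wild type animal 66) and 2 (without Cmah KO animal 10 or Cmah KO mdx animal 7). For mdx against the other 3 groups the median over the members was 0.09 in gastrocnemius, also with the replicate block, and between 0.049 and 0.38 when 1 array was left out. In heart it was 0.78, also with the block, 0.61 with quantile normalization, 1.02 against wild type alone, 0.62 over the brightest probe set of each member, 0.95 without both deviating arrays, 0.57 without the 4 animals that stood apart in the controls, and between 0.65 and 0.87 when 1 array was left out. The settings without deviating arrays or animals were chosen after seeing the data. At the 4 raised probe sets every mdx array lay above every other array. Leaving out arrays or groups could therefore not change their sign, and only the sizes are described. Over the alternatives Uqcr10 1434340_at ranged from 3.98 to 4.88 in gastrocnemius and from 3.19 to 4.09 in heart. Uqcr10 1434341_x_at ranged from 2.25 to 3.46 and from 2.36 to 2.99. Dusp18 1451270_at ranged from 2.08 to 3.22 and from 3.37 to 4.16, and Sf3a1 1419087_s_at from 1.24 to 1.95 and from 2.33 to 2.98. Of the rest, Pik3ip1 in gastrocnemius, 2 dim Sf3a1 probe sets, Nipsnap1 1448465_at in gastrocnemius and Uqcr10 1424364_a_at in heart changed sign under at least 1 alternative. Their reported differences lay between -0.10 and 0.14, and the alternatives reached 0.75 (Sf3a1 1446687_at in heart) and -0.63 (Nipsnap1 1448465_at in gastrocnemius). Where probe sets lay near the filter level, a fold change may be understated. The cause of these shifts was not tested.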
